A study of Homo sapiens with 6 samples.

Results

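The 10 genes described here encode proteins through which a tumour cell can act on T cells, natural killer cells and macrophages: CD274, CMTM6, CD276, PVR, NECTIN2, LGALS9, CD47, CSF1, IDO1 and TDO2. They were taken by symbol from a table of 60623 genes, and each was found in exactly 1 row. RNA-seq was done on 6 libraries of cells labelled Huh7, a line established from a human liver cancer, with no treatment given. The control group was 3 libraries with the genotype label WT and titles beginning NC, and the other group was 3 libraries with the genotype label SRSF10 knockdown and titles beginning SH, which the series title ties to a short hairpin RNA. Nothing in the labels says whether the control cells carried a hairpin or its vector, how many hairpins or clones were used, or whether the replicates were separate cultures. The p-values below therefore measure only the spread between these libraries, which may be technical. The comparison asks which of these genes differ when SRSF10, an RNA-binding splicing factor of the SR family, is lowered.

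Checkpoint ligands are surface proteins that dampen or tune lymphocytes when they meet a receptor. PD-L1, the product of CD274, binds PD-1 on T cells, and CMTM6 is a membrane protein that keeps PD-L1 from being degraded. CD276 (B7-H3) belongs to the same B7 family, and its receptor is not settled. PVR and NECTIN2 are nectin-type adhesion molecules that share receptors on T and natural killer cells, the inhibitory TIGIT and the activating CD226, and NECTIN2 also binds PVRIG. CD47 gives macrophages a signal against phagocytosis through SIRPA, and CSF1 is the growth and survival factor that macrophages sense through CSF1R. TDO2 and IDO1 are separate dioxygenases that open the tryptophan ring at the start of the kynurenine pathway, TDO2 being the form typical of liver. Kynurenine can restrain T cells through the receptor AHR.

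The sequences just upstream of 4 of these genes are shown for reference. TDO2 had the largest change and CD274 was barely detected. NECTIN2 and PVR are related genes on the same chromosome, of which NECTIN2 alone passed the test. Any part of these sequences in the results was not tested. They come from RefSeq (GRCh38.p14), are written 5′ to 3′ along the gene, and run from 250 bases before the RefSeq start up to the first base in that window that GENCODE release 29 annotates as exon. For TDO2 the RefSeq start lies inside the GENCODE gene, which begins at 155854738 with other transcripts, so its stretch precedes only the RefSeq start. Capitals mark matches, on either strand, to any of 5 motifs: TATAAA (the TATA box), CACGTG (the E-box), TTCNNNGAA (the interferon gamma activated site), GGGCGG (the GC box) and TGANTCA (AP-1).
TDO2, chr4:155903446-155903692, plus strand
TDO2: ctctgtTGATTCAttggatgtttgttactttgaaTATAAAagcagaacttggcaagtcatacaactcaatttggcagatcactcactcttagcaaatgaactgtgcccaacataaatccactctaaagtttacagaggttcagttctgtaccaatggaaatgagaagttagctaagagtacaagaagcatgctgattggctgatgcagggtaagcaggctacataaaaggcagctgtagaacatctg
NECTIN2, chr19:44846047-44846174, plus strand
NECTIN2: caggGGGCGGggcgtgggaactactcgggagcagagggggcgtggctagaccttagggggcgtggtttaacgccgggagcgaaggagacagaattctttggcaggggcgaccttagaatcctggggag
PVR, chr19:44643660-44643797, plus strand
PVR: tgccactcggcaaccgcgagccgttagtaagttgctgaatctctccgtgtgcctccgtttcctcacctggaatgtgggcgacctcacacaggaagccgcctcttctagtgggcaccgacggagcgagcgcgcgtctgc
CD274, chr9:5450292-5450502, plus strand
CD274: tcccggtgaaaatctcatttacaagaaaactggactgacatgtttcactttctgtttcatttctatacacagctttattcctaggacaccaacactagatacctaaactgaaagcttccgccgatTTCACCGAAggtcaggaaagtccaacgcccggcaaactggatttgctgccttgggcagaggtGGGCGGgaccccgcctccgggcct

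The upstream windows of these 4 genes differed in composition. TDO2 had 0 CG dinucleotides and 40.0% G+C in its 250 bases, NECTIN2 had 19 and 67.6%, PVR had 27 and 70.0%, and CD274 had 16 and 54.8%. The medians of 35116 RefSeq windows of the same length were 11 CG dinucleotides and 58.0% G+C. In the TDO2 window there was 1 match to TATAAA, found in 10.7% of all windows, and 1 to TGANTCA, found in 6.57%. They began at -216 and -244 from the RefSeq start, so both lie in the far part of the window. The CD274 window held 1 match to TTCNNNGAA (6.57% of all windows) and 1 to GGGCGG. NECTIN2 had 3 GC boxes in its whole window, 1 of them in the printed stretch, and PVR held no match to any of the 5, while 42.6% of all windows hold a GC box. Windows were matched by symbol for 8 of the 10 genes, all but CSF1 and IDO1. Among the windows not printed, GC boxes numbered 6 for CD47, 5 for CMTM6, 7 and 2 for those of CD276, and 0 for LGALS9.

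Values are the FPKM that the authors deposited, that is, fragments scaled to gene length and to library size. Low values step by whole fragments, which puts the depth at an estimated 12685000 to 14335000 fragments per library. SRSF10 itself fell from 19.3 ± 0.608 to 10.7 ± 0.119 FPKM (SD, n = 3 per group), with no overlap between the groups. Of the 11 hepatocyte and hepatoma genes looked at, 8 were under 1 FPKM in every library, among them ALB, AFP and APOA1, so the liver transcripts that define such cells were near or at 0 although HNF4A (4.23 to 6.22 FPKM) was present. T cell genes were at most 0.172 FPKM, and CD3D, CD3G, CD2 and CD4 were listed at 0. The 9 macrophage genes summed to 1.23 to 1.57 FPKM in the controls and 1.99 to 2.70 in the knockdown, of which ITGAM made up 72.0% to 81.6% per library, with CSF1R, CD163 and PTPRC near 0 and MRC1 and TYROBP listed at 0. ITGAM (1.09 to 1.73 FPKM), the fibroblast gene LUM (4.40 to 9.50 FPKM) and the endothelial genes KDR (0.502 to 3.09 FPKM) and PECAM1 (5.28 to 6.85 FPKM) rose from the control to the knockdown mean, ITGAM and KDR passing the filter on low values (given below) only with their knockdown libraries. The other markers of those cell types (8 macrophage, 6 fibroblast and 3 endothelial) stayed under 1 FPKM and were not tested. Of these, 5 lay above every control in all 3 knockdown libraries, as did 20.6% of all tested genes. The 5 were COL3A1 (mean 0.0618 to 0.381 FPKM), DCN (0.0164 to 0.172), COL1A1 (0.00723 to 0.106), CD14 (0.150 to 0.299) and CDH5 (0.00836 to 0.0363). ALB (0.150 to 0.624) also lay above every control. Estimated fragments per library ran from 0 to 4 for CDH5, 3 to 13 for CD14 and 0 to 23 for COL1A1. They ran from 1 to 41 for DCN, 4 to 41 for COL3A1 and 5 to 37 for ALB. The part of these markers in the results was not tested. In bulk RNA a change in the share of cells and a change of RNA per cell cannot be told apart.

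Of the 10 genes, 8 passed the filter on low values (at least 1 FPKM in at least 3 libraries), and each of those 8 was above 1 FPKM in all 6 libraries. TDO2, CD276 and NECTIN2 rose in the knockdown and CMTM6 fell, by limma with a Benjamini-Hochberg adjusted p under 0.05 over all 12191 tested genes. The 3 that rose were 37.5% of the 8, against 12.6% of all tested genes, and the 1 that fell was 12.5%, against 12.5% of all. Among the 8, the knockdown values all lay above the controls for 5 genes and below them for 1, against 20.6% and 22.0% of all tested genes, or 42.7% in either direction. In 138 companion genes of the same pathways 81 were tested, of which 30 rose (37.0%) and 7 fell (8.64%). The 10 genes and all companion lists were chosen with earlier results of these data known. The shares, here and for each list below, therefore do not test whether the lists stand out from all genes. The median log2 fold change was 0.28 over the 8 and -0.01 over all tested genes. With 3 libraries per group the smallest two-sided p of an exact permutation test is 0.1, and all 6 genes without overlap reached it.

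**Figure D1:**
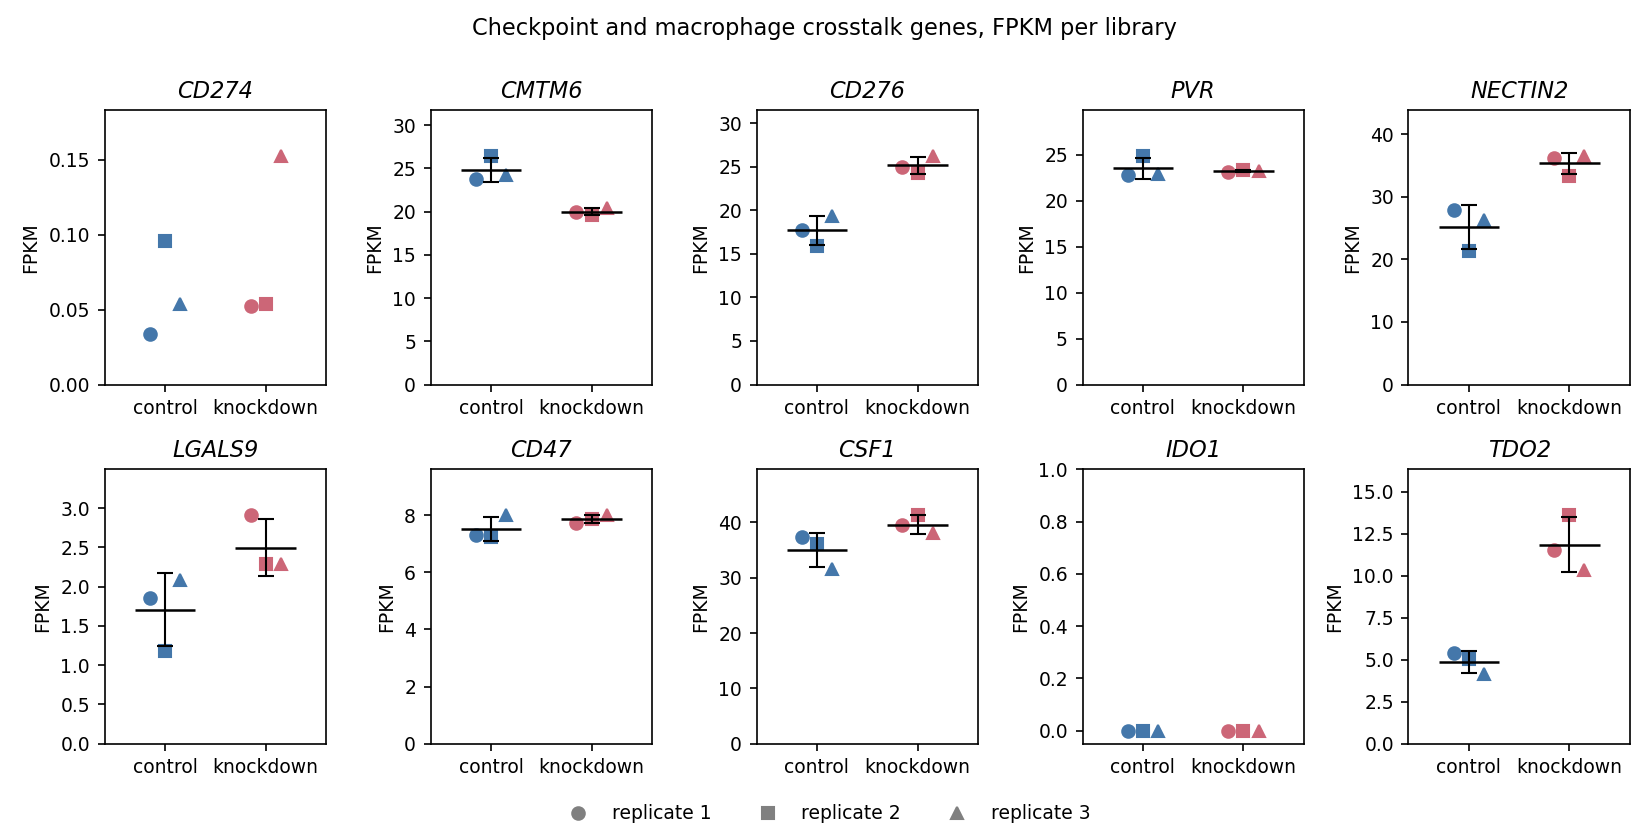
FPKM of each gene in every library, controls in blue and knockdown in red, with a symbol per replicate number; lines and bars are the mean and SD of 3 libraries, left out for CD274 and IDO1, and the vertical scale differs between panels. TDO2, CD276 and NECTIN2 lie higher and CMTM6 lower in all 3 knockdown libraries, CD274 stays under 0.16 FPKM and IDO1 is listed at 0 throughout.

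PD-L1 transcript was close to the limit of detection. CD274 (ENSG00000120217, GRCh38 chromosome 9, 5450503 to 5470566, plus strand) read 0.0339, 0.0957 and 0.0539 FPKM in control libraries and 0.0522, 0.0536 and 0.152 FPKM in knockdown libraries. Those values correspond to about 2, 5 and 3 fragments and to 3, 3 and 8. The groups overlapped, and the ratio of 1.41 between the summed rates has an exact 95% interval of 0.582 to 3.55, which covers counting error only. A change in CD274 was not detectable at this depth. PDCD1LG2, the gene of the other PD-1 ligand, was listed at 0 in all 6 libraries.

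CMTM6, which holds PD-L1 at the cell surface, was abundant by contrast. CMTM6 (ENSG00000091317, chromosome 3, 32481312 to 32503408, minus strand) read 23.7, 26.4 and 24.3 FPKM in control libraries and 19.9, 19.6 and 20.4 FPKM in knockdown libraries. Every knockdown library was below every control. The log2 fold change was -0.30 (standard error 0.0473; adjusted p = 0.00563 by limma), a mean 19.5% lower.

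The fall of CMTM6 was of the size seen over its chromosome arm. Among 326 tested genes of the short arm of chromosome 3 the median log2 fold change was -0.27, and 56.7% were called lower, against 12.5% of all tested genes. Of 11 other tested genes whose starts lie within 1 Mb of that of CMTM6, 8 were called lower and 0 higher at the same limma threshold, with a median of -0.39. The neighbouring family members CMTM7 (3.55 ± 0.626 to 2.46 ± 0.254 FPKM) and CMTM8 (4.999 ± 0.9 to 3.43 ± 0.526 FPKM) had log2 fold changes of -0.39 and -0.43, of which CMTM7 passed the test (limma adjusted p = 0.0413 and 0.0501). Exons of CMTM6 and CMTM7 overlap over 324 bases on opposite strands, and the strand setting is not given in the sources used here. With the median change of each chromosome or arm removed, the log2 fold change of CMTM6 was -0.03 (limma adjusted p = 0.674). Whether CMTM6 changed apart from its arm was not shown. Elsewhere in the family CMTM3, on chromosome 16, rose from 6.30 ± 0.799 to 9.996 ± 1.05 FPKM and CMTM4, which also stabilises PD-L1, had a log2 fold change of -0.05 (limma adjusted p = 0.00709 and 0.497).

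**Figure D2:**
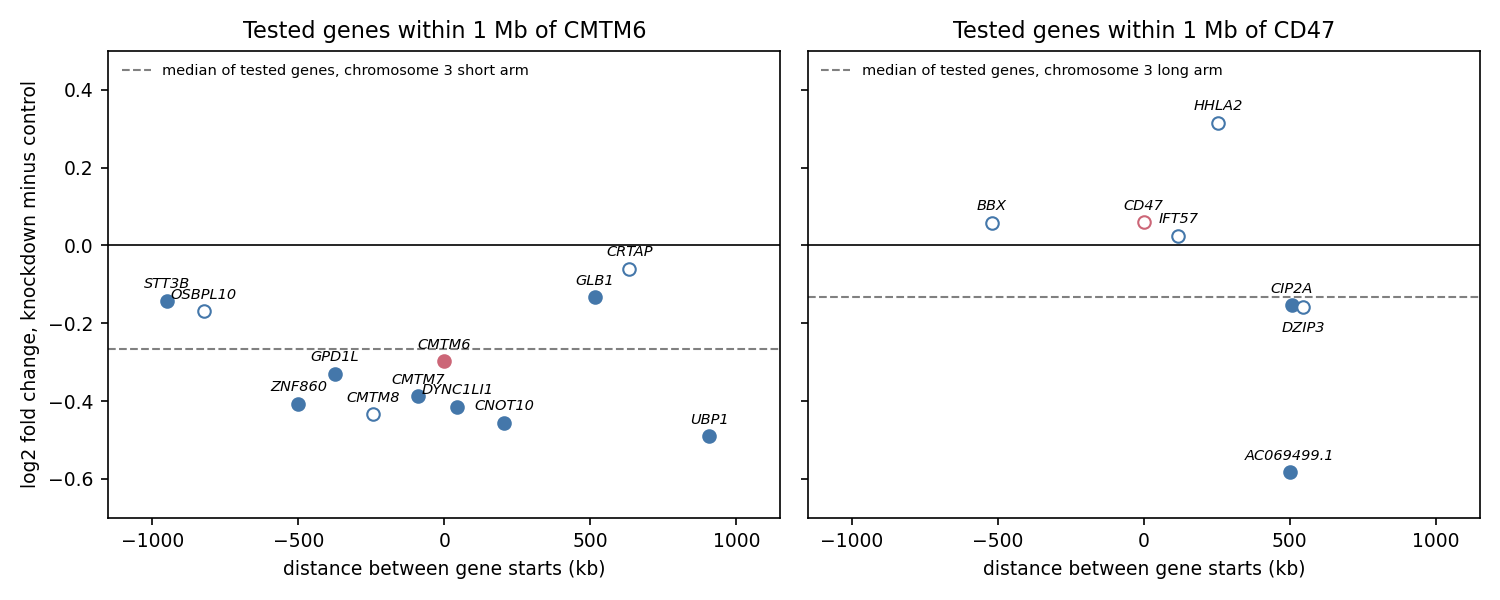
Log2 fold change of tested genes against the distance of their start from that of CMTM6 (left) and CD47 (right), with the named gene in red, filled points for a limma adjusted p under 0.05 and a dashed line at the median of the chromosome arm. Genes around CMTM6 all lie below 0, with CMTM6 at -0.30 near the median of -0.27, whereas CD47 lies above the median of its arm.

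CD276 was the main B7 family transcript in these cells. CD276 (ENSG00000103855, chromosome 15, 73683966 to 73714518, plus strand) read 17.8, 15.9 and 19.4 FPKM in control libraries and 24.9, 24.3 and 26.2 FPKM in knockdown libraries. The groups did not overlap, and control replicate 2 was the lowest library. CD276 rose 1.42-fold, with a log2 fold change of 0.49 (standard error 0.0699; adjusted p = 0.00392 by limma). It made up 75.9% to 79.2% of the summed FPKM of 10 B7 family genes in the controls and 75.6% to 78.2% in the knockdown, ranges that overlap.

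Of the nectin ligands of TIGIT and CD226, NECTIN2 rose and PVR did not pass the test. PVR (ENSG00000073008, chromosome 19, 44643798 to 44663583, plus strand) read 22.8, 24.9 and 22.9 FPKM in control libraries and 23.1, 23.3 and 23.2 FPKM in knockdown libraries. The knockdown libraries lie within the range of the controls, and the log2 difference of -0.02 has a 95% interval of -0.12 to 0.08 (limma adjusted p = 0.803). NECTIN2 (ENSG00000130202, chromosome 19, 44846175 to 44889228, plus strand) read 27.9, 21.3 and 26.3 FPKM in control libraries and 36.1, 33.4 and 36.5 FPKM in knockdown libraries.

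NECTIN2 was higher in every knockdown library, by 1.40-fold, with a log2 fold change of 0.48 (standard error 0.096; adjusted p = 0.0126 by limma). Within a library the ratio of NECTIN2 to PVR was 1.22, 0.856 and 1.15 in the controls and 1.56, 1.43 and 1.57 in the knockdown (p = 0.1 by a two-sided exact permutation test, the smallest it can give). In the controls both genes were thus at like levels, and in the knockdown NECTIN2 exceeded PVR in all 3 libraries. Of the other nectins NECTIN3, an adhesion partner of NECTIN2, rose from 2.18 ± 0.025 to 3.11 ± 0.0673 FPKM (limma adjusted p = 0.0043), and lies on the long arm of chromosome 3, and NECTIN1 was at 3.22 and 3.06 FPKM. Exons of PVR overlap those of CEACAM19 over 121 bases, and those of NECTIN2 overlap an antisense gene over 128 bases.

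LGALS9 encodes a secreted galectin that binds the checkpoint receptor HAVCR2 on T cells. LGALS9 (ENSG00000168961, chromosome 17, 27629798 to 27649560, plus strand) read 1.86, 1.18 and 2.08 FPKM in control libraries and 2.91, 2.29 and 2.29 FPKM in knockdown libraries. The knockdown libraries were all above the controls, but the adjusted p was 0.103 (limma, log2 difference 0.38, 95% interval 0.04 to 0.72). Control replicate 2 was far below the other controls, and without it the difference was 0.23. The near-identical copies LGALS9B and LGALS9C were at or near 0, with 1 estimated fragment in 1 library, although reads shared among the copies could be split or lost in counting.

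Neither of the macrophage-directed ligands passed the test. CD47 (ENSG00000196776, chromosome 3, 108043094 to 108091862, minus strand) read 7.32, 7.23 and 8.003 FPKM in control libraries and 7.72, 7.88 and 8.002 FPKM in knockdown libraries. The groups overlapped, and the log2 difference was 0.06 with a 95% interval of -0.06 to 0.18 (limma adjusted p = 0.427). The 392 tested genes of the long arm of chromosome 3 had a median of -0.13. With that median removed the difference was 0.19 (limma adjusted p = 0.0316).

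CSF1 was the most abundant of the 10 transcripts. CSF1 (ENSG00000184371, chromosome 1, 109910242 to 109930992, plus strand) read 37.4, 36.1 and 31.5 FPKM in control libraries and 39.5, 41.3 and 38.1 FPKM in knockdown libraries. The groups did not overlap, by a margin of less than the spread of the controls. The log2 difference of 0.18 (95% interval 0.02 to 0.34) did not pass the threshold over all genes (limma adjusted p = 0.102). IL34, the gene of the other ligand of CSF1R, averaged 0.0235 FPKM without and 0.122 FPKM with the knockdown. Those values rest on about 0, 2 and 0 fragments in control libraries and 3, 5 and 3 in knockdown libraries, and IL34 was not tested.

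Of the tryptophan dioxygenases only TDO2 was read above 0 FPKM in these libraries. TDO2 (ENSG00000151790, chromosome 4, 155854738 to 155920406, plus strand) read 5.38, 5.07 and 4.12 FPKM in control libraries and 11.6, 13.6 and 10.4 FPKM in knockdown libraries. The lowest knockdown library was well above the highest control. The 2.44-fold rise was the largest among the 10 genes, with a log2 fold change of 1.13 (standard error 0.115; adjusted p = 0.00114 by limma). IDO1 (ENSG00000131203, chromosome 8, 39902275 to 39928444, plus strand) and IDO2 were listed at 0 in every library. A listed 0 is not read as absence here, because EEF1G, which is active in nearly all cells, was also listed at 0 in all 6 libraries; it was chosen after its values were seen.

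**Figure D3:**
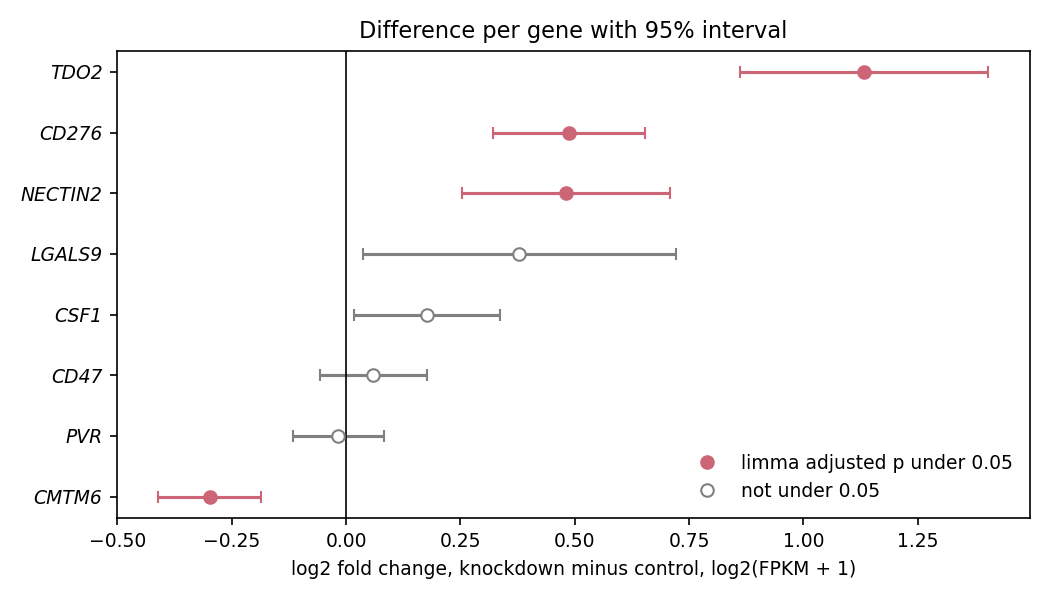
Log2 fold change of the 8 tested genes, on log2(FPKM + 1), with 95% intervals from limma; filled red points have an adjusted p under 0.05. TDO2 stands at 1.13, CD276 and NECTIN2 near 0.5, CMTM6 at -0.30, and the intervals of CD47 and PVR include 0.

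The order of the levels changed between the groups. In the controls CSF1 (35.0 ± 3.09 FPKM) stood first, followed by NECTIN2 (25.2 ± 3.44), CMTM6 (24.8 ± 1.43) and PVR (23.5 ± 1.17), which overlapped one another. CD276 (17.7 ± 1.71), CD47 (7.52 ± 0.424), TDO2 (4.86 ± 0.653) and LGALS9 (1.71 ± 0.467) came after them and were separate from their neighbours. In the knockdown the order was CSF1 (39.6 ± 1.63 FPKM), NECTIN2 (35.3 ± 1.7), CD276 (25.1 ± 0.995), PVR (23.2 ± 0.0973), CMTM6 (19.98 ± 0.407), TDO2 (11.8 ± 1.65), CD47 (7.87 ± 0.139) and LGALS9 (2.50 ± 0.36), with no overlap between neighbours (SD, n = 3 per group). CD276 passed above PVR and CMTM6, and TDO2 above CD47. FPKM are divided by gene length, so these levels can be compared between genes, as far as the gene models used by the authors are right.

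Other ligands of T and natural killer cells were mostly at low levels, and several rose. Of 35 such genes 21 were tested, 10 rose and 1 fell by limma, or 47.6% and 4.76% against 12.6% and 12.5% of all tested genes, and their median log2 fold change was 0.31 against -0.01. FGL1, BTN3A3 and HHLA2 passed the filter only with their knockdown libraries; without them 8 of 18 rose and 1 fell. FGL1, a secreted ligand of the checkpoint receptor LAG3, read 0.885, 0.953 and 1.16 FPKM in control libraries and 4.91, 4.63 and 4.17 FPKM in knockdown libraries. MICB, a stress-induced ligand of the activating receptor NKG2D, went from 5.27 ± 0.436 to 11.02 ± 0.44 FPKM. NCR3LG1 (B7-H6), which activates natural killer cells, went from 3.29 ± 0.0939 to 4.86 ± 0.416 FPKM, and the butyrophilin BTN3A2 from 1.94 ± 0.0795 to 2.997 ± 0.181 FPKM. The adhesion ligand CD58 fell from 14.1 ± 0.37 to 12.1 ± 0.962 FPKM (limma adjusted p = 0.0434). The genes that rose thus include ligands of inhibitory and of activating receptors. MICA and MICB, and the BTN3A genes, are close copies whose reads can be split.

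Among known regulators of PD-L1, IRF2, IRF1 and STAT3 rose while IFNGR1 and KEAP1 fell. Of 23 genes 19 were tested, of which 3 rose and 2 fell, or 15.8% and 10.5%, near the 12.6% and 12.5% of all tested genes, with a median log2 fold change of 0.03 against -0.01. The transcription factors IRF2 (7.97 ± 0.532 to 10.06 ± 0.107 FPKM), IRF1 (1.85 ± 0.064 to 2.67 ± 0.27 FPKM) and STAT3 (11.5 ± 0.685 to 13.8 ± 0.642 FPKM) rose. IFNGR1, a chain of the interferon gamma receptor, fell from 52.3 ± 4.9 to 39.1 ± 2.74 FPKM (limma adjusted p = 0.0108), and the ubiquitin ligase adaptor KEAP1 from 3.69 ± 0.313 to 2.65 ± 0.13 FPKM. The other receptor chain, IFNGR2, was at 15.7 and 18.1 FPKM and did not pass the test (limma adjusted p = 0.111).

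Among genes that signal for or against phagocytosis, SIRPA, PROS1 and CD24 had the largest rises of those tested. Of 18 genes 15 were tested, 7 rose and 0 fell by limma (8 and 1 at an unadjusted p under 0.05), so that 46.7% of those tested rose against 12.6% of all tested genes, with a median log2 fold change of 0.11 against -0.01. Without CD24, which passed the filter only with its knockdown libraries, 6 of 14 rose. SIRPA, the receptor of CD47, was itself present in these cells and went from 1.94 ± 0.0754 to 5.58 ± 0.356 FPKM (limma adjusted p = 2e-04). PROS1, a ligand that bridges dying cells to phagocyte receptors, went from 1.24 ± 0.0774 to 4.28 ± 0.406 FPKM. CD24, another signal against phagocytosis, went from 0.461 ± 0.199 to 3.94 ± 0.669 FPKM. QPCT, a glutaminyl cyclase, went from 18.8 ± 0.609 to 24.7 ± 0.719 FPKM, while QPCTL, the related enzyme that modifies CD47, was at 7.94 and 8.37 FPKM and did not pass the test (limma adjusted p = 0.681).

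Besides CSF1, few factors that recruit or polarise macrophages were measurable. Of 24 such genes 7 were tested, 5 rose and 0 fell by limma (6 and 0 at an unadjusted p under 0.05), or 71.4% and 0% against 12.6% and 12.5% of all tested genes, and 17 were under 1 FPKM in every library, among them CCL2, CSF2, IL6 and IL10. Those that rose were TGFB1 and TGFB2 (16.1 ± 1.74 to 21.6 ± 0.739 FPKM), the secreted phosphoprotein SPP1, the chemokine CCL20 (1.35 ± 0.346 to 3.17 ± 0.5 FPKM) and the semaphorin SEMA3A (4.13 ± 0.478 to 5.95 ± 0.555 FPKM). TGFB1 read 23.7, 22.4 and 23.97 FPKM in control libraries and 38.99, 38.7 and 40.5 FPKM in knockdown libraries, and SPP1 went from 252 ± 16.9 to 353 ± 14.2 FPKM. Both groups of values are well apart for these 2 genes, which like TDO2 were known to be higher when the lists were drawn up.

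Downstream of TDO2, genes of the kynurenine pathway rose and fell. Of 22 genes 14 were tested, 4 rose and 3 fell, or 28.6% and 21.4% against 12.6% and 12.5% of all tested genes, with a median log2 fold change of 0.10 against -0.01. AFMID, the formamidase that acts directly after TDO2, fell from 3.69 ± 0.209 to 2.74 ± 0.0444 FPKM (limma adjusted p = 0.00766). KYNU, which cleaves kynurenine, rose from 10.5 ± 0.553 to 13.4 ± 0.687 FPKM, whereas the aminotransferase AADAT, which turns it into kynurenic acid, fell from 8.95 ± 0.63 to 7.19 ± 0.222 FPKM. SLC7A5, an exchanger of large amino acids that carries tryptophan and kynurenine, rose from 60.1 ± 7.55 to 85.03 ± 6.22 FPKM.

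The kynurenine receptor AHR averaged 13.5 FPKM without and 14.2 FPKM with the knockdown (limma adjusted p = 0.561). Its target TIPARP, which lies on the long arm of chromosome 3, fell from 17.9 ± 1.34 to 11.6 ± 0.704 FPKM. The targets CYP1A1 and CYP1B1 did not pass the test (limma adjusted p = 0.803 and 0.163).

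**Figure D4:**
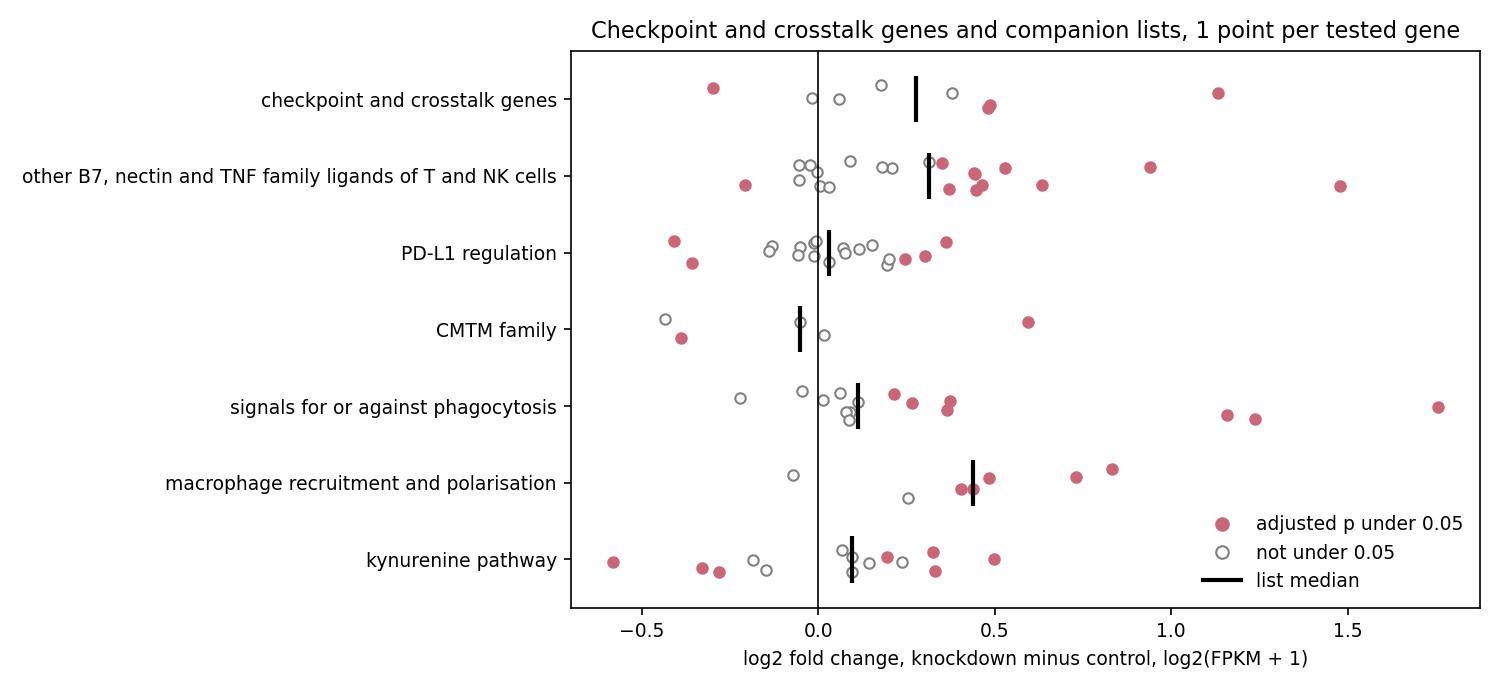
Log2 fold change on log2(FPKM + 1) of every tested gene in the set of 10 and in 6 companion lists, with filled red points for a limma adjusted p under 0.05 and a black line at each list's median. Points of the ligand, phagocytosis and macrophage lists extend to the right, and those of PD-L1 regulation and the kynurenine pathway lie on both sides of 0.

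The transcripts whose levels followed TDO2 most closely over the 6 libraries were those of HADHA, CTSO and TMEM41B, with Pearson r of 0.998, 0.998 and 0.997. They were taken from 6333 protein-coding genes with a mean of at least 5 FPKM. The difference between the groups carries most of such a correlation, and HADHA, the alpha subunit of the mitochondrial trifunctional protein, changed far less than TDO2, from 49.5 to 50.9 FPKM in the controls to 53.9 to 55.3 FPKM in the knockdown.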

How the data were processed

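Total RNA of 6 libraries (3 control, 3 SRSF10 knockdown, grouped by the genotype label) was sequenced on an Illumina NovaSeq instrument, per the labels' protocols. The submitters' processing notes name Trim Galore 0.6.5-1, FastQC 0.11.9 and GRCh38, and which aligner, counter, annotation and strand setting the authors used is not given in the sources used here. Deposited values are FPKM, identical in the table of the whole series and the files per sample for all 60623 genes. FPKM are not counts, so no count model was run.

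Genes with at least 1 FPKM in at least 3 libraries (12191) were fitted with limma 3.58.1 in R 4.3.3 on log2(FPKM + 1), with a trend on mean expression and the group as the only term. P-values were adjusted by Benjamini-Hochberg over all tested genes, with a threshold of 0.05. Fold changes are on the log2(FPKM + 1) scale, which understates those of low genes, whereas ratios given as a fold are of mean FPKM. The 10 genes and all companion and marker lists were chosen with earlier results of these data known. Named companions are up to 4 called genes with the smallest adjusted p per list and any called gene of the other direction; others were picked with their values in view. Gene positions, exon lengths and overlaps are from GENCODE release 29 on GRCh38, and the arms of chromosome 3 were parted at the widest stretch without a gene start. Depth was taken as the smallest that made low FPKM values whole fragment numbers, which put 87.8% to 88.4% of values within 0.05 of a whole number. The fit was also run on data simulated with independent normal noise of the spread of these libraries. Those simulated data held no shift of a chromosome arm and no trend on GC content, so that run cannot speak to either. Python 3.11.15, pandas 2.3.3 and matplotlib 3.10.9 were used.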

Additional observations from a re-analysis of the deposited data

How the results depend on the processing

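The calls of TDO2, CD276 and NECTIN2 as higher held under all 16 alternatives, with log2 fold changes of 1.04 to 1.27, 0.42 to 0.55 and 0.37 to 0.56 and limma adjusted p of at most 0.00757, 0.0192 and 0.0495. The alternatives were no filter, a 5 FPKM filter, a pseudocount of 0.1, 3 other scalings, no trend, the replicate block, each library left out and, chosen after seeing the data, removal of a trend on GC content and length and removal of the chromosome or arm median. CMTM6 stayed lower in 15 of 16; with the arm median removed the number of the 10 genes called lower was 0. LGALS9 (15 alternatives, adjusted p 0.0692 to 0.267; not tested at 5 FPKM) and CSF1 (0.0658 to 0.25) passed in none. The difference of PVR ran from -0.038 to 0.022 with 1 library left out and changed sign without control replicate 2. Over all genes, 1013 were lower with no filter; leaving out 1 library gave 986 to 1344 higher and 975 to 1335 lower, the fewest without knockdown replicate 3, and without knockdown replicate 2 the lower genes numbered 997. With the replicate number as a block 1193 genes were higher and 1146 lower, and 3 and 1 of the 10 genes. Deviations of same-numbered libraries correlated with r = 0.0156, 0.057 and -0.0715, and not every library correlated best with its own number. The labels do not say whether same-numbered libraries were prepared together, and with 3 libraries per group these values cannot decide it. At this depth CD274 rests on 2 to 8 estimated fragments per library, and IDO1 is listed at 0.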

Other observations

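Receptors that T and natural killer cells use for the ligands described were nearly silent, with 9 of 10 under 1 FPKM in every library. PVRIG, the receptor of NECTIN2, was the exception, at 3.41 to 3.93 FPKM in control libraries and 2.92 to 3.51 FPKM in knockdown libraries (limma adjusted p = 0.312). TIGIT, CTLA4 and ICOS were listed at 0.

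Over 12143 tested genes, the deviation of a library from its group mean followed G+C content with Spearman rho of 0.246 in control replicate 1, -0.0085 in control replicate 2 and -0.198 in control replicate 3. In knockdown replicates 1, 2 and 3 rho was -0.095, -0.0462 and 0.157. The lowest values of CD276, NECTIN2 and LGALS9 were in control replicate 2. Their source was not tested.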
